A study of Mus musculus with 5 samples.

Results

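The 6 genes described here, Lad1, Tnnt2, Tnni1, Phlda3, Csrp1 and Pkp1, lie side by side on mouse chromosome 1 and are 6 of the 32285 genes counted. They were taken by symbol as a neighborhood, because UMIs of Lad1 and Tnnt2 came almost only from a pair of the 5 single-cell libraries. How these genes differ between libraries, and how they go together in cells with each other and with Irf4 and Nr4a1, was part of their choice. It is therefore given as a description without a test. The members were selected on these values: the UMIs and detection of Lad1 and Tnnt2 by library, their detection in the same cells, and their detection together with Irf4 and Nr4a1.

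None of the 6 is a classical T-cell gene. Ladinin 1, the product of Lad1, is a protein of the anchoring filaments that tie epithelia to the basement membrane, and Tnnt2 encodes the troponin T of heart muscle, which holds the troponin complex on tropomyosin. Tnni1 encodes the inhibitory troponin of slow skeletal muscle, Csrp1 a LIM-domain protein abundant in smooth muscle, and Pkp1 the desmosomal plaque protein plakophilin 1. Phlda3 is a target gene of p53 whose small PH-domain protein restrains the kinase Akt. Irf4 and Nr4a1 encode transcription factors that T cells switch on after engagement of the antigen receptor, and the level of Irf4 follows the strength of that signal.

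The study profiled CD4 T cells enriched by negative selection from a naive OT-II mouse's spleen. The OT-II receptor, a transgene, recognizes an ovalbumin peptide on MHC class II. The labelled samples are T cells with sKPC apCAFs and OVA, with sKPC apCAFs and DMSO, with rKPC apCAFs and OVA, with rKPC apCAFs and DMSO, and T cells alone without treatment, 1 sample each. The apCAFs are antigen-presenting cancer-associated fibroblasts, sorted from mouse tumors of the clones sKPC or rKPC and cocultured overnight, so each clone is a single model, and the labels used here give no age of the animals. RNA was captured at its 5′ end, and each molecule was counted once through a unique molecular identifier (UMI).

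The counts come in a pair of aggregated matrices, called G and H here, whose cell barcodes end in a suffix for the library. G holds 3 suffixes and is named by the labels of 2 samples. H holds 2 suffixes and is named by the labels of 3 samples. No source used here ties a suffix to a sample, so the libraries are called G1, G2, G3, H1 and H2 after matrix and suffix, stand for no labelled group, and are never averaged. These names are not sample names.

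The 5 libraries together held 25623 barcodes. Barcodes with at least 500 UMIs, at most 10% mitochondrial UMIs and at least 1 UMI of Cd3d, Cd3e or Cd3g were called Cd3+. There were 5236 in G1, 3081 in G2, 6419 in G3, 4200 in H1 and 3938 in H2, which is 22874 in all, with a median of 7928 to 8767.5 UMIs per barcode and 25724994 to 59328578 UMIs per library. Cd4 was found in 14800 of the 22874 barcodes, and 2558 had Trdc, the constant segment of the delta receptor chain, and no Cd4 UMI. A cell without a Cd4 UMI may still express the gene. Any pair of libraries shared 2 to 14 barcode sequences. Of the Cd3+ barcodes, 29 held over 50000 UMIs, and they matter below for a few genes. Levels are given as CPM, the UMIs of a gene for each 1000000 UMIs of all genes in the same cells. Intervals are 95% exact intervals, which cover counting error alone and not differences between cells, cultures or animals. A count of 0 allows up to 3 counts.

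The order of the genes along the chromosome is Csrp1, Phlda3, Tnni1, Lad1, Tnnt2, Pkp1 in build GRCm38 with GENCODE vM21. Lad1 spans 135818598 to 135833342 on chromosome 1 and Tnnt2 spans 135836354 to 135852260. Both are read on the plus strand, and 3011 bases lie between the end of Lad1 and the start of Tnnt2. Csrp1 (135720061 to 135752232), Phlda3 (135766119 to 135769136) and Tnni1 (135779434 to 135810989) are also on the plus strand, while Pkp1 (135871395 to 135919207) runs on the minus strand, and the whole neighborhood covers 199.147 kb. Lad1, Tnnt2, Phlda3, Tnni1 and Csrp1 overlap no other annotated gene.

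The sequences shown are the 250 bases before the RefSeq start (build GRCm38.p6, plus strand) of 3 members. Among members with at least 100 UMIs, these had the highest CPM ratio of cells with both Irf4 and Nr4a1 to cells with neither. They are Lad1 at chr1:135818348-135818597, the first of the annotated windows of Tnnt2 at chr1:135836084-135836333, and Phlda3 at chr1:135765835-135766084. Capitals mark matches to an NFAT core or an E-box, on either strand.
Lad1: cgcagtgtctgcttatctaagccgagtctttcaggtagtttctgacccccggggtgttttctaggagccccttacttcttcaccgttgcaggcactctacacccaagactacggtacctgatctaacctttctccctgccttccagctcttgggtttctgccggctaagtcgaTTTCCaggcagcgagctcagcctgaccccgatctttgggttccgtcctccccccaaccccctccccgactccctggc
Tnnt2: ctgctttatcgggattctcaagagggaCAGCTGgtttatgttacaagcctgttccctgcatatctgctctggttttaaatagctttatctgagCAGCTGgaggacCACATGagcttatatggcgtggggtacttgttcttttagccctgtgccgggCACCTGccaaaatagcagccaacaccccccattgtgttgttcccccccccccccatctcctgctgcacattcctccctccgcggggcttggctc
Phlda3: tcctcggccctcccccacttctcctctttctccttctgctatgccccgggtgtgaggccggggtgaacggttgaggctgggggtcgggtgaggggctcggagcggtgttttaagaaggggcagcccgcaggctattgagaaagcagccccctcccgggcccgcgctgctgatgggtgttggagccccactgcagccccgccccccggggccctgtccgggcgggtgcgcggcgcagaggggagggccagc
The motifs searched on both strands were the NFAT core (GGAAA), AP-1 (TGANTCA), the NR4A response element (AAAGGTCA), a tandem IRF element (GAAA repeated after a gap of 2 bases), EGR (GCGNGGGCG), the TATA box (TATAAA) and the E-box (CANNTG). An NFAT core or an E-box is common, since 55.6% and 66.2% of 32851 promoter windows of that length hold them. AP-1 is in 6.75%, the NR4A element in 1.34%, the IRF element in 2.98%, EGR in 4.70% and the TATA box in 12.4%. The Lad1 window held 1 NFAT core, which starts 77 bases before the gene on the minus strand. The Tnnt2 window held 4 E-boxes, which start 223, 157, 145 and 94 bases before the gene, and the Phlda3 window held none of the 7 motifs. RefSeq gives Tnnt2 another start, whose window held 1 NFAT core and 1 E-box. No window of the 3 held the AP-1, NR4A, IRF, EGR or TATA letters, which says only that these letters are not in these bases.

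Lad1 was found in G1 and G3 and nearly nowhere else. Its UMIs numbered 1539 in G1, 3 in G2, 1552 in G3, 9 in H1 and 1 in H2. The level was 31.7 CPM (30.1 to 33.3) in G1 and 26.2 CPM (24.9 to 27.5) in G3, against 0.248 CPM in H1, 0.117 CPM in G2 and 0.0295 CPM in H2. G1 and G3 do not overlap each other, and both stand far above the remaining 3, whose intervals overlap. G1 stood 128-fold above H1, a log2 ratio of 6.998 (6.07 to 8.13), and log2 8.09 (6.54 to 10.36) above G2.

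The Lad1 molecules sat in a small share of cells. In G1, 327 of 5236 Cd3+ barcodes (6.25%, 5.60 to 6.93) held Lad1, with 4.71 UMIs on average and up to 25 in a cell. In G3, 346 of 6419 (5.39%, 4.85 to 5.97) held it, with 4.49 UMIs on average and up to 23. It was found in 2 barcodes of G2, 4 of H1 and 1 of H2. With every cell thinned to 3000 UMIs, which leaves out 1211 shallower barcodes (232 in G1, 169 in G2, 330 in G3, 272 in H1 and 208 in H2), the share was 3.98% in G1, 0.0343% in G2, 3.25% in G3, 0.0255% in H1 and 0 in H2. The libraries thus differed in how many cells held Lad1, and in G1 and G3 such a cell mostly held several molecules, with at least 5 in 134 and 125 cells.

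Tnnt2 showed the same split. Its UMIs numbered 699 in G1, 64 in G2, 722 in G3, 1 in H1 and 0 in H2, which is 14.4 CPM (13.3 to 15.5) in G1, 2.49 CPM in G2, 12.2 CPM (11.3 to 13.1) in G3 and 0.0275 CPM in H1. The 0 of H2, set at 3 counts, allows up to 0.0884 CPM, and G1 was 163-fold above that value. The exact interval of the ratio of G1 to H2 starts at log2 7.04. Cells with Tnnt2 were 238 in G1 (4.55%), 2 in G2, 243 in G3 (3.79%) and 1 in H1. They held 2.94 UMIs on average in G1 and 2.97 in G3, with up to 15 in a cell in each.

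The middle place of G2 for Tnnt2 rests on a single barcode. It held 278399 UMIs in all and 60 of the 64 Tnnt2 UMIs, with 79 UMIs of Col3a1, 55 of Sparc, 17 of Krt18 and all 8 fibroblast markers, but only 1 UMI each of Cd3d, Cd3e and Cd3g and 4 of Trac. Without barcodes over 50000 UMIs, G2 had no Tnnt2 UMI, 1 of Lad1 and 6 of Phlda3 in place of 25. G1 and G3 hardly moved, at 14.4 and 12.1 CPM of Tnnt2.

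Phlda3, the p53 target whose start lies at -52.5 kb from that of Lad1, was likewise highest in G1 and G3. Its UMIs numbered 112 in G1, 25 in G2, 101 in G3, 15 in H1 and 7 in H2. The level was 2.31 CPM (1.90 to 2.77) in G1 and 1.70 CPM (1.39 to 2.07) in G3, against 0.972 CPM in G2, 0.413 CPM in H1 and 0.206 CPM in H2. G1 and G3 overlap each other. G2 overlaps G3 and H1, but without its largest barcodes it stood at 0.239 CPM, between H1 and H2. G1 was 11.2-fold above H2, a log2 ratio of 3.48 (2.39 to 4.83).

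Csrp1, the LIM-domain gene, was the member present in every library at a like level. Its UMIs numbered 1352 in G1, 547 in G2, 1591 in G3, 775 in H1 and 677 in H2, and its level was 27.8, 21.3, 26.8, 21.3 and 19.9 CPM in that order of libraries. G1 and G3 overlap, as do H1, G2 and H2, while G3 and H1 do not. G1 stood 1.40-fold above H2, a log2 ratio of 0.48 (0.35 to 0.62). It was found in 18.1% of Cd3+ barcodes in G1, 13.5% in G2, 18.2% in G3, 14.9% in H1 and 14.1% in H2.

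Tnni1 and Pkp1 were at the edge of detection. Tnni1 had 19 UMIs in G1, 1 in G2, 16 in G3, 0 in H1 and 4 in H2. Pkp1 had 1 UMI each in G1, G2 and H1 and none in G3 and H2, so nothing more can be read for the plakophilin gene at this depth. The 4 members with at least 100 UMIs were Lad1, Tnnt2, Phlda3 and Csrp1, and 3 of these 4 spanned at least 4-fold from the lowest to the highest library, which is the pattern they were chosen for. Over all 14758 genes with as many UMIs, 4.47% did so.

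**Figure D1:**
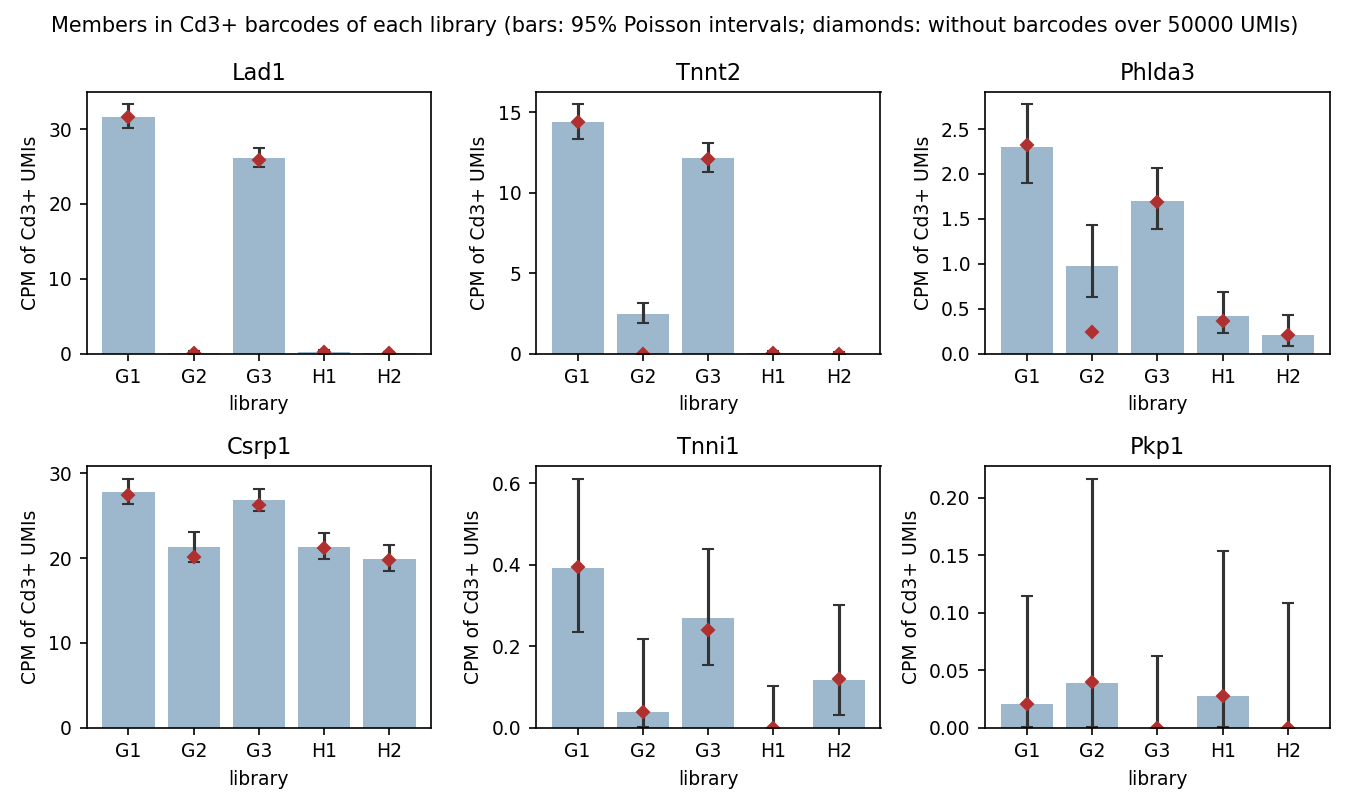
Level of each member in Cd3+ barcodes (y axis, CPM, a scale of its own per gene) by library (x axis), with 95% Poisson intervals as error bars and, as diamonds, the level without barcodes of over 50000 UMIs. Lad1 and Tnnt2 stand at 31.7 and 14.4 CPM in G1 and at 26.2 and 12.2 CPM in G3, Csrp1 lies between 19.9 and 27.8 CPM in every library, and the bars of G2 for Tnnt2 and Phlda3 drop without the largest barcodes.

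Within G1 and G3 the Lad1 molecules came mostly from cells that also held Irf4 and Nr4a1. Cells were sorted into those with neither gene, with Nr4a1 only, with Irf4 only and with both, a split chosen after the data had been seen. In G1 these classes held 3914, 251, 464 and 607 cells, and Lad1 stood at 4.57 CPM (3.88 to 5.34), 7.96 CPM (4.79 to 12.4), 108 CPM (98.9 to 118) and 114 CPM (106 to 122). In G3 they held 4973, 283, 541 and 622 cells, and Lad1 stood at 3.53 CPM (2.99 to 4.14), 5.60 CPM (3.13 to 9.23), 84.6 CPM (77.2 to 92.5) and 110 CPM (103 to 117). The high classes in each library are those with Irf4, while the class with Nr4a1 only overlaps the class with neither.

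The share of cells showed it as well. Lad1 was found in 20.5% (16.9 to 24.4) of G1 cells with Irf4 only and 27.7% (24.2 to 31.4) of those with both, against 1.99% (0.65 to 4.59) with Nr4a1 only and 1.51% (1.15 to 1.94) with neither. In G3 the shares were 17.2% (14.1 to 20.6) with Irf4 only and 29.6% (26.0 to 33.3) with both, against 1.41% (0.386 to 3.58) with Nr4a1 only and 1.31% (1.01 to 1.66) with neither. Cells with more UMIs pass more detection thresholds, and the median UMIs of these classes differ, at 9854.5, 11331, 8924 and 8410 in G1. Cells with both genes were 11.6% of the Cd3+ barcodes of G1 and 9.69% of those of G3, and gave 55.0% and 58.4% of the Lad1 UMIs.

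Tnnt2 followed Irf4 in the same way. In G1 it stood at 1.80 CPM (1.37 to 2.31) in cells with neither gene, 2.93 CPM (1.18 to 6.04) with Nr4a1 only, 49.1 CPM (43.0 to 55.8) with Irf4 only and 53.1 CPM (48.0 to 58.6) with both. In G3 the levels were 1.85 CPM (1.46 to 2.30), 6.34 CPM (3.69 to 10.1), 40.3 CPM (35.2 to 45.8) and 48.2 CPM (43.6 to 53.2). The class with Nr4a1 only overlapped the class with neither in G1, and stood above it in G3 with 17 UMIs in 6 cells.

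Expressed as a log2 ratio of cells with both genes to cells with neither, Lad1 was higher by 4.64 (4.39 to 4.90) in G1 and 4.96 (4.71 to 5.22) in G3. Tnnt2 was higher by 4.89 (4.49 to 5.30) in G1 and 4.70 (4.35 to 5.07) in G3. With cells thinned to 3000 UMIs and sorted again, Lad1 was found in 17.6% against 1.06% in G1 and in 19.4% against 1.14% in G3, so it stayed far higher in cells with both at equal depth. Sorting by Nr4a3 and Il2ra instead gave log2 4.68 and 4.94 for Lad1 and 4.55 and 4.54 for Tnnt2 in G1 and G3.

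Phlda3 was also higher in the classes with Irf4, but with its own order. In G1 it stood at 0.353 CPM in cells with neither gene, 0.838 CPM with Nr4a1 only, 11.7 CPM (8.80 to 15.1) with Irf4 only and 5.65 CPM (4.07 to 7.63) with both. In G3 it stood at 0.421, 0.373, 7.24 (5.20 to 9.82) and 4.96 (3.56 to 6.73) CPM. In G1 the p53 target was thus higher in cells with Irf4 only than in cells with both, with intervals that do not overlap, while in G3 they do. Csrp1 differed least as a ratio, at 42.3 CPM with both and 23.3 CPM with neither in G1, and at 41.2 CPM and 23.2 CPM in G3.

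Of the 4 members with at least 100 UMIs, 3 in each library were at least 2-fold higher in cells with both genes than in cells with neither, a contrast the choice of members used. Over all genes with as many UMIs, 13.0% were so in G1 and 14.1% in G3. No member of the 4 was 2-fold lower, as 20.1% of all genes were in G1 and 16.7% in G3. Tnni1 had 9 UMIs in cells with both and 9 in cells with neither in G1, and 9 and 6 in G3, which is log2 2.19 (0.68 to 3.70) and 2.96 (1.30 to 4.73) once scaled to the UMIs of those cells.

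**Figure D2:**
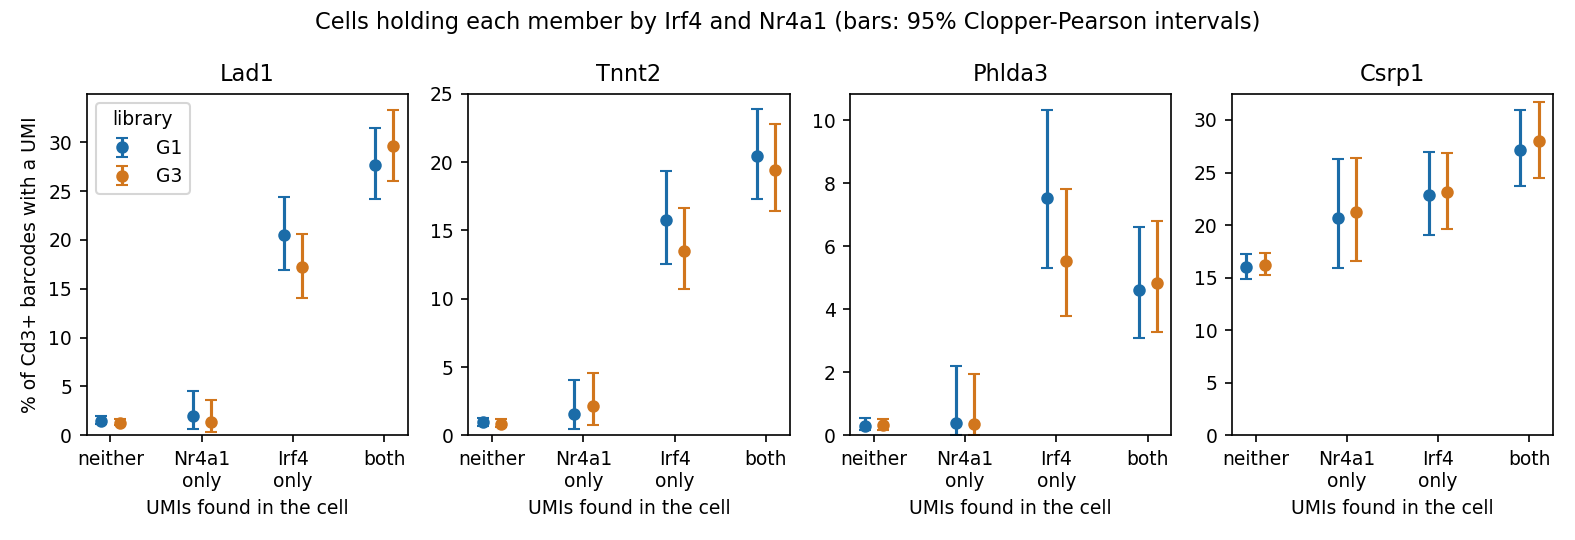
Share of Cd3+ barcodes with a UMI of Lad1, Tnnt2, Phlda3 or Csrp1 (y axis, %) among cells with neither, only Nr4a1, only Irf4 or both (x axis), in G1 and G3, with 95% Clopper-Pearson intervals. Lad1 is at 1.51 and 1.99% without Irf4 and at 20.5 and 27.7% with Irf4 in G1, and at 1.31 and 1.41% without and 17.2 and 29.6% with Irf4 in G3.

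The level of Lad1 was ordered as the classes of Irf4 molecules per cell, though not every step is larger than counting error, and the intervals of Tnnt2 overlap over the upper classes. In G1, cells with 0, 1 to 2, 3 to 9, 10 to 19 and at least 20 Irf4 UMIs had 4.79, 55.1, 118, 139 and 183 CPM of Lad1, and 4165, 360, 370, 283 and 58 cells stood behind these values. In G3 the levels were 3.66, 35.4, 112, 136 and 165 CPM over 5256, 417, 424, 271 and 51 cells. The intervals of neighboring classes do not overlap for 3 to 9 against 1 to 2 Irf4 UMIs, and they do overlap for 10 to 19 (127 to 151 CPM) against 3 to 9 (108 to 129 CPM) in G1 and for the highest class of G3 against the one below it. The share of cells with Lad1 reached 44.8% (31.7 to 58.5) in the highest class of G1 and 43.1% (29.3 to 57.7) in that of G3. Tnnt2 had 1.87, 27.6, 63.7, 57.0 and 65.6 CPM in the same classes of G1 and 2.11, 19.1, 54.1, 55.3 and 68.5 CPM in those of G3, and the intervals of the 3 highest classes overlap. The median UMIs per cell also went up over these classes, at 8447, 9125, 10433.5, 12251 and 13954.5 in G1, and their part in the shares was not tested here beyond the CPM scaling.

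Lad1 and Tnnt2 were found in the same cells. Their detection together was among the values used to choose them, so it is given as a description. Of the cells with Lad1, 190 of 327 in G1 (58.1%, 52.6 to 63.5) and 193 of 346 in G3 (55.8%, 50.4 to 61.1) also held Tnnt2. Of the cells without Lad1, 48 of 4909 in G1 (0.978%) and 50 of 6073 in G3 (0.823%) held it. Read the other way, 79.8% of G1 cells with Tnnt2 and 79.4% of those of G3 held Lad1, against 2.74% and 2.48% of cells without Tnnt2.

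This held within classes of Irf4 and Nr4a1 detection, whose cells are not matched in depth or in the level of Irf4. In the class with both, cells with Lad1 held a median of 12365 UMIs against 10840 in G1 and 12012.5 against 10344.5 in G3. Among cells with both of these genes, Tnnt2 was in 62.5% (54.7 to 69.8) of cells with Lad1 against 4.33% (2.63 to 6.68) of cells without it in G1. In G3 it was in 58.7% (51.2 to 65.9) against 2.97% (1.59 to 5.02). Among cells with neither gene it was in 28.8% (17.8 to 42.1) against 0.519% in G1, and in 27.7% (17.3 to 40.2) against 0.509% in G3. At 3000 UMIs per cell the shares over all cells were 39.7% against 0.749% in G1 and 35.4% against 0.628% in G3.

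The more Lad1 UMIs a cell had, the more often it held Tnnt2. For cells with 0, 1, 2 to 4, 5 to 9 and at least 10 Lad1 UMIs, the share with Tnnt2 in G1 was 0.978, 22.5, 57.7, 79.6 and 87.8%, and the mean was 0.0116, 0.494, 1.51, 3.03 and 3.88 Tnnt2 UMIs per cell. In G3 the shares were 0.823, 24.8, 58.3, 74.0 and 93.8%, with means of 0.00972, 0.504, 1.74, 2.78 and 4.25 UMIs. The classes with Lad1 held 89, 104, 93 and 41 cells in G1 and 113, 108, 77 and 48 in G3. Their median UMIs lay between 10493 and 13106 in G1 and between 9975 and 13292.5 in G3.

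**Figure D3:**
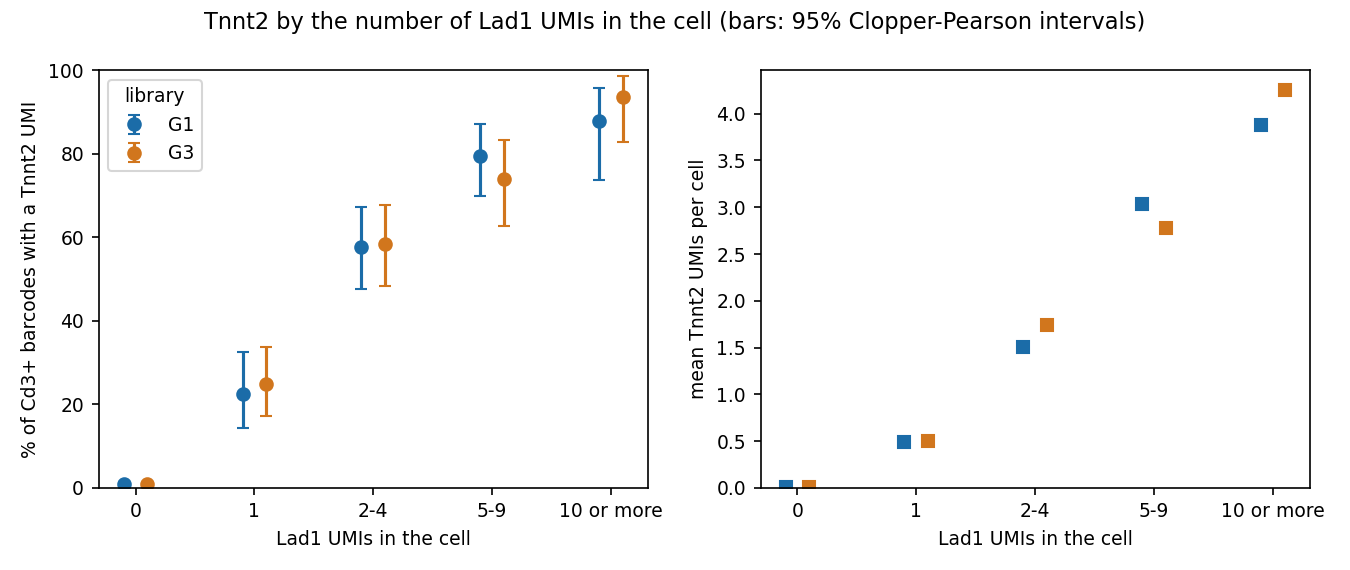
Share of Cd3+ barcodes with a Tnnt2 UMI (left, y axis in %, with 95% Clopper-Pearson intervals) and mean Tnnt2 UMIs per cell (right), by the number of Lad1 UMIs in the cell (x axis), in G1 and G3. The share goes up from under 1% without Lad1 to 87.8% in G1 and 93.8% in G3 in cells with at least 10 Lad1 UMIs.

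The number of Tnnt2 UMIs for each Lad1 UMI was compared between classes of cells. For each Lad1 UMI there were 0.454 Tnnt2 UMIs (0.415 to 0.497) in G1 and 0.465 (0.425 to 0.508) in G3. This ratio is compared between cells only and is not read as a difference in level between the genes. It was 0.394 (0.288 to 0.533) in G1 cells with neither Irf4 nor Nr4a1 and 0.467 (0.413 to 0.527) in those with both. In G3 it was 0.523 (0.393 to 0.691) with neither and 0.439 (0.389 to 0.494) with both. These intervals overlap between the classes and the libraries. Over cells with 3 to 9, 10 to 19 and at least 20 Irf4 UMIs it was 0.539 (0.462 to 0.628), 0.411 (0.348 to 0.483) and 0.358 (0.264 to 0.482) in G1, and 0.484 (0.416 to 0.563), 0.406 (0.346 to 0.476) and 0.415 (0.308 to 0.553) in G3, with neighboring classes overlapping. In Cd3-negative barcodes it was 0.860 (0.559 to 1.32; 43 Tnnt2 and 50 Lad1 UMIs) in G1, above the interval of the Cd3+ barcodes, and 0.582 (0.407 to 0.826; 53 and 91 UMIs) in G3, which overlaps it.

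Cells with Tnnt2 but no Lad1 UMI lay between the cells with neither and the cells with the pair. In G1, Irf4 was found in 16.1% of 4861 cells with neither, 56.2% of 48 with Tnnt2 only, 67.9% of 137 with Lad1 only and 89.5% of 190 with both. In G3 the shares were 14.4% of 6023, 42.0% of 50, 68.0% of 153 and 89.6% of 193. Il2ra, the alpha chain of the interleukin-2 receptor, was in 85.8% of G1 cells with both and 16.7% of those with neither, and in 89.1% and 14.4% of those of G3.

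Phlda3 was also found with Lad1. It was in 38 of 327 G1 cells with Lad1 (11.6%, 8.36 to 15.6) against 38 of 4909 without (0.774%), and in 36 of 346 (10.4%, 7.39 to 14.1) against 41 of 6073 (0.675%) in G3. The level was 15.8 CPM against 1.08 CPM in G1, log2 3.87 (3.31 to 4.44), and 11.6 CPM against 0.825 CPM in G3, log2 3.82 (3.22 to 4.42). Among cells with both Irf4 and Nr4a1 the gap was small, at 6.55% (3.31 to 11.4) against 3.87% (2.27 to 6.13) in G1 and 6.52% (3.42 to 11.1) against 4.11% (2.45 to 6.42) in G3, with overlapping intervals. Among cells with Irf4 or Nr4a1 but not both it was wide, at 26.0% (17.7 to 35.7) against 1.63% in G1 and 20.6% (13.1 to 30.03) against 1.51% in G3.

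Csrp1 was in 35.8% (30.6 to 41.2) of cells with Lad1 against 17.0% (15.9 to 18.0) of cells without it in G1, and in 34.1% (29.1 to 39.4) against 17.3% (16.3 to 18.2) in G3. Its level was 66.2 CPM against 24.3 CPM in G1 and 57.3 CPM against 24.1 CPM in G3, a log2 ratio of 1.44 (1.25 to 1.64) and 1.25 (1.06 to 1.44). Tnni1 had 8 UMIs in the 327 cells with Lad1 and 11 in the 4909 without in G1, and 12 and 4 in G3, so that 2.45% (1.06 to 4.76) and 3.47% (1.80 to 5.98) of cells with Lad1 held it, against 0.163% and 0.0494% of cells without. Of the members other than Lad1, Tnnt2, Phlda3 and Csrp1 were at least 2-fold higher in cells with Lad1 in both libraries, where 9.56% of all genes with at least 100 UMIs were so in G1 and 12.7% in G3. For cells with Tnnt2 the shares of all genes were 10.1% and 12.6%.

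Genes outside the 6 were ranked by their likeness to Lad1. The measure was the log2 ratio of CPM in cells with to cells without Lad1, with 0.5 added to the counts, taken as the lower of the values of G1 and G3, over 5926 genes with at least 100 UMIs in cells with Lad1 in each library. Tnnt2 came first of these genes, at 6.94 in G1 and 6.98 in G3. The choice of the pair used their detection in the same cells, so their ranks for each other describe that choice and are no test. Next were Ccl22, AA467197, Bcl2l1, Gadd45b, Pycr1, Mir155hg, Fmnl2, Dusp5 and Snhg15. Read from Tnnt2 over 5116 genes, Lad1 came first at 5.47 and 5.66, and the next were Ccl22, AA467197, Gadd45b, Bcl2l1, Pde4a, Prkg1, Snhg15, Mir155hg and Dusp5. Pde4a, a phosphodiesterase of cyclic AMP, stood at 3.07 and 3.24. Prkg1, a kinase activated by cyclic GMP, stood at 3.07 and 4.13, with 80.8% and 86.6% of its UMIs in 10 cells.

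Of these genes, 7 were carried by many cells and stood near log2 3 in each library. Bcl2l1, which encodes the survival protein Bcl-xL, was in 67.9% of G1 cells with Lad1 against 14.97% of those without, a log2 ratio of 3.27, with 3.32 in G3. Gadd45b, a stress-response gene, was in 74.0% against 12.9%, at 3.30 and 3.26. Mir155hg, the host transcript of miR-155, was in 82.3% against 16.9%, at 2.99 and 3.04. AA467197 was in 23.5% against 1.71%, at 3.27 and 3.71, though 10 cells held 36.5% of its UMIs in G1 cells with Lad1 and 52.8% in those of G3. Pycr1, an enzyme of proline synthesis, Dusp5, a phosphatase of ERK, and the long noncoding RNA Snhg15 stood at 2.97 to 3.10. So the gap between Tnnt2 and the next of these genes was over 3 log2 units.

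Ccl22 and Fmnl2 rest on few cells. Ccl22, a chemokine of dendritic cells and macrophages, was in 2 of 327 G1 cells with Lad1, of which 1 cell held 451 of 456 UMIs, and in 7 of 346 in G3. Its log2 ratio was 6.37 in G1 and 3.53 in G3, and without barcodes over 50000 UMIs it was 0.01 and 6.40. Fmnl2, which encodes a formin, was in 5 and 14 cells, with 153 of 157 UMIs in 1 cell of G1. Its ratio was 2.99 in G1 and 3.07 in G3, and -2.02 and 2.56 without these barcodes.

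Among cells with both Irf4 and Nr4a1, Tnnt2 was still first of 4148 genes for Lad1, at 5.26 in G1 and 5.05 in G3, and Lad1 first of 3317 for Tnnt2, at 3.40 and 3.27. Tnnt2 also came first among cells with Cd4, without the 6% of cells with the most UMIs, at 3000 UMIs per cell, and over the 9363 genes with at least 20 UMIs, where Phlda3 entered the first 10 at 3.87 and 3.81. Genes of MHC class II came behind Tnnt2 in some of these rankings. Among cells with Cd4 the next were H2-Eb1 and H2-Ab1, chains of MHC class II, and Cd74, the invariant chain, at 4.73, 4.48 and 4.42 in G1 and 6.502, 6.004 and 5.52 in G3. H2-Aa, a further chain, stood at 3.98 and 6.42.

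MHC class II and dendritic-cell genes were followed further, chosen after their values were seen. MHC class II is the mark of antigen-presenting cells. Over all Cd3+ barcodes, H2-Aa stood at 40.4 CPM in cells with Lad1 against 9.55 CPM in cells without in G1, and at 105.9 CPM against 3.28 CPM in G3. It was in 14 of 327 cells with Lad1 in G1, of which 1 cell held 138 of its 164 UMIs, and in 16 of 346 in G3, where 10 cells held 98.2% of its 510 UMIs. Without barcodes over 50000 UMIs its log2 ratio was -0.34 in G1, against 2.08 with them, and 4.48 in G3, against 5.01. Cd74 was in 18.7% of cells with Lad1 against 3.06% of cells without in G1 and 18.5% against 3.28% in G3, and its log2 ratio without these barcodes was 0.71 and 4.22. Of the dendritic-cell genes, Ccl17, Fscn1, Apol7c and Cd40 were in 1 or 2 of the cells with Lad1 in G1 and in 2 to 8 in G3. So the ratio of H2-Aa rests on 1 barcode in G1 and on few cells in G3. The part of these cells in the rankings was not tested beyond the values given here.

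Lad1 and Tnnt2 hardly moved without such cells. Cells with at least 2 of H2-Aa, H2-Ab1 and H2-Eb1 were 15 in G1 and 21 in G3, and they were 1.22% and 2.89% of cells with Lad1, against 0.224% and 0.181% of cells without. They held 23 and 67 Lad1 UMIs and 7 and 9 Tnnt2 UMIs. Without them, Lad1 stood at 31.5 CPM in G1 and 25.4 CPM in G3, Tnnt2 at 14.4 and 12.2 CPM, and 57.9% and 56.5% of cells with Lad1 held Tnnt2.

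**Figure D4:**
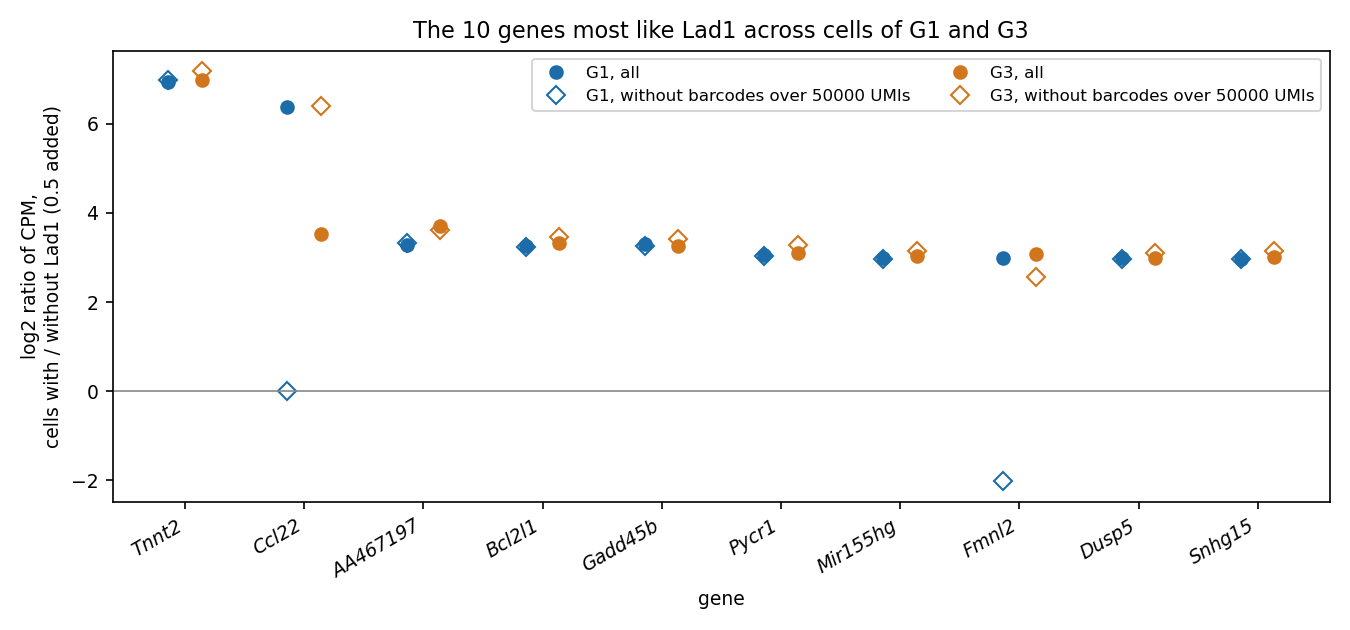
Log2 ratio of CPM in cells with to cells without Lad1 (y axis) for the 10 genes with the highest lower value over G1 and G3 (x axis), for all Cd3+ barcodes (filled) and without barcodes over 50000 UMIs (open). Tnnt2 lies at 6.94 and 6.98, the genes carried by many cells lie near 3, and Ccl22 and Fmnl2 in G1 lose their ratio with the largest barcodes.

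Neighbors outside the 6 were described by the same ratios. Within 500 kb of the start of Lad1 the annotation holds 34 genes, of which 26 were counted and 10 had at least 100 UMIs, namely 4 members and Shisa4, Ipo9, Nav1, Tmem9, Kif21b and Gm26781. Kif21b, a kinesin, was lower in cells with both Irf4 and Nr4a1 than in cells with neither, by log2 -1.94 (-2.12 to -1.76) in G1 and -1.75 (-1.92 to -1.59) in G3. Tmem9 was lower by -1.51 (-2.14 to -0.97) and -1.79 (-2.38 to -1.29). Ipo9, an importin, stood at -0.24 and -0.17. Of these 6 neighbors, 0 in G1 and 2 in G3 (Nav1 and Shisa4) were at least 2-fold higher in cells with both. In each library 2 were 2-fold lower. The ratios have 0.5 added to the counts. Over all genes with at least 100 UMIs, 13.0% in G1 and 14.1% in G3 were 2-fold higher, and 20.1% and 16.7% were 2-fold lower. Counts over 6 genes cannot be set apart from these shares.

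Nav1 was at -0.74 (-1.85 to 0.12) in G1 and 1.96 (1.58 to 2.33) in G3, where 35 of its 105 UMIs in cells with both genes sat in a single cell. Nav1 was the only neighbor outside the 6 to span 4-fold over the libraries, at log2 2.07, where 4.47% of all measured genes did. Without barcodes over 50000 UMIs Nav1 spanned 0.68. Nav1, Ipo9 and Gm26781 overlap other annotated genes, and the sources used here do not say whether reads were counted by strand. Shisa4 and Gm26781 had 134 and 215 UMIs in all, and their intervals include 0 in each library. Between these neighbors and the gene pair lie Csrp1 and Phlda3 on one side, at 0.86 and 3.96 in G1 and 0.83 and 3.54 in G3.

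**Figure D5:**
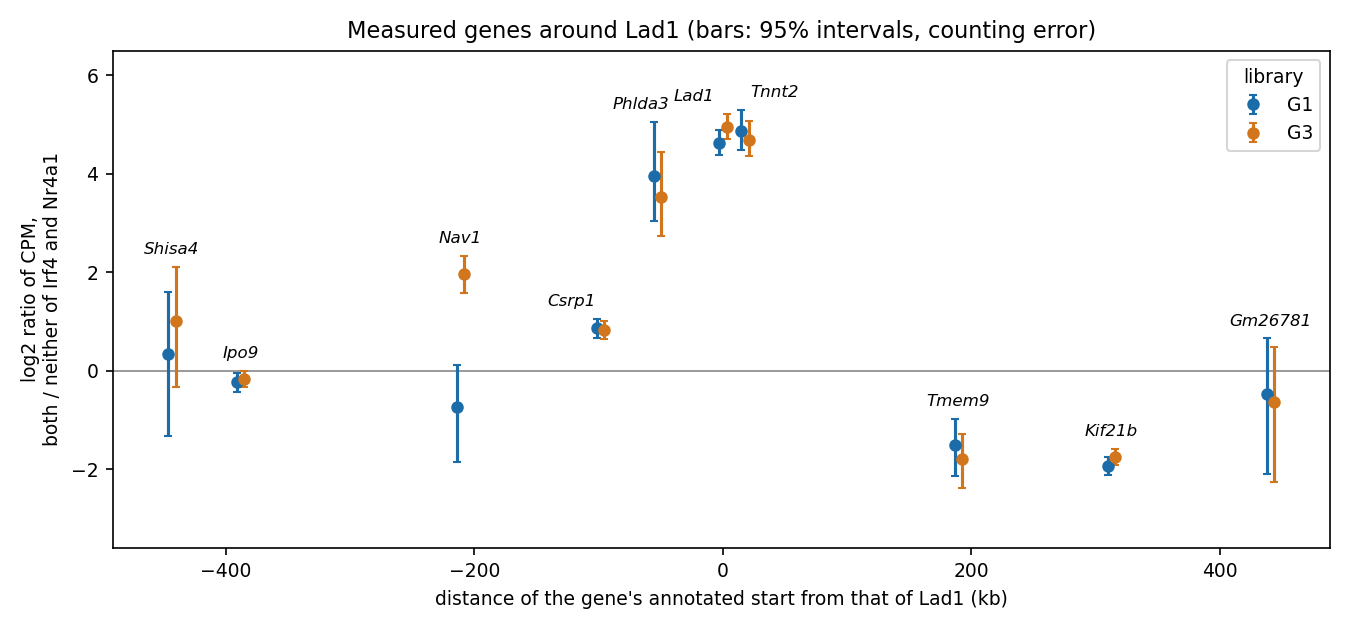
Log2 ratio of CPM in Cd3+ cells with both to cells with neither of Irf4 and Nr4a1 (y axis) for the 10 genes with at least 100 UMIs around Lad1, by the distance of the annotated start from that of Lad1 (x axis, kb), in G1 and G3, with 95% intervals for counting error. Phlda3, Lad1 and Tnnt2 stand between 3.54 and 4.95, Csrp1 below 1, and Tmem9 and Kif21b below 0.

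T-cell genes were found in the cells with Lad1, some at a lower level than in the cells without. Trac, the constant segment of the alpha chain, was in 327 of 327 in G1 and 346 of 346 in G3, but also in 99.7% of cells without Lad1 in each library, so it does not tell the cells apart. Trbc2, a constant segment of the beta chain, stood at 1727 CPM against 2377 CPM in G1 and 1484 CPM against 2295 CPM in G3. Lck, the kinase of the receptor's first signaling step, was in 65.4% (60.0 to 70.6) against 86.4% in G1 and 68.2% (63.0 to 73.1) against 85.4% in G3, and at 3000 UMIs per cell in 33.2% against 59.2% and 25.8% against 58.4%. Cd4 was in 33.6% (28.5 to 39.0) of them against 60.8% of cells without Lad1 in G1, and in 35.8% (30.8 to 41.1) against 61.2% in G3. Among cells with both Irf4 and Nr4a1 these shares lay closer, at 31.0% (24.1 to 38.5) against 35.8% in G1 and 28.8% (22.4 to 35.9) against 39.3% in G3. Cd8a was in 0 of 327 and 1 of 346. Trdc was in 11.6% against 20.8% in G1 and 9.83% against 18.9% in G3, and at 3000 UMIs per cell in 1.51% against 13.3% and 2.02% against 12.3%. Foxp3, the factor of regulatory T cells, was in 3.36% against 2.36% and 2.31% against 2.06%, with overlapping intervals.

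The pattern was not limited to cells with Cd4. Among cells with both Irf4 and Nr4a1, Lad1 was in 52 of 209 cells with Cd4 (24.9%, 19.2 to 31.3) and in 13 of 44 cells with Trdc and without Cd4 (29.5%, 16.8 to 45.2) in G1. In G3 it was in 53 of 225 (23.6%, 18.2 to 29.7) and 9 of 31 (29.0%, 14.2 to 48.0). Free RNA in the droplets can put a Trdc UMI into a cell that does not express it, so the makeup of this class was not tested.

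In the state genes, cells with Lad1 differed widely from cells without over all Cd3+ barcodes, and mostly less among cells with both Irf4 and Nr4a1. Il2ra was in 78.0% (73.1 to 82.4) against 17.1% in G1 and 80.1% (75.5 to 84.1) against 14.7% in G3. Il7r, the receptor of interleukin-7, was in 23.2% against 76.7% and 27.7% against 76.9%. Ccr7, the chemokine receptor for lymph node homing, was higher in cells with Lad1, at 1045 CPM against 232 CPM in G1 and 896 CPM against 232 CPM in G3. It stayed higher among cells with both Irf4 and Nr4a1, in 75.0% (67.7 to 81.3) against 54.0% (49.2 to 58.7) in G1 and 79.3% (72.8 to 85.0) against 58.4% (53.7 to 63.1) in G3. In that class Il2ra was in 97.0% against 86.3% in G1 and 98.9% against 83.6% in G3. Il7r was there in 16.1% (10.9 to 22.5) against 24.1% (20.2 to 28.4) in G1. In G3 it was in 19.6% (14.1 to 26.0) against 27.9% (23.7 to 32.3), so the Il7r intervals overlap in each library. Cells with Lad1 held a median of 11754 UMIs against 8633 in G1 and 11317.5 against 8398 in G3, and at 3000 UMIs per cell the Ccr7 shares were 72.4% against 43.2% and 75.8% against 41.7%.

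The p53 and T-cell receptor lists had many members higher in cells with Lad1, and the sarcomere, basement membrane and LIM lists had 1 or none in each library. The shares over all measured genes were 9.56% in G1 and 12.7% in G3, as above. Counts of 0 or 1 among the 5 to 8 measured genes of the sarcomere, basement membrane and LIM lists are near these shares. Over the libraries, 4.47% of all measured genes spanned 4-fold, so a count of 0 in a short list is near that share. Of 16 genes for troponins and the sarcomere, 7 had at least 100 UMIs, and 0 spanned 4-fold over the libraries, with a median span of log2 0.54 against 0.39 over all genes. Of the 5 with enough UMIs in G1 and the 5 in G3, 0 were 2-fold higher in cells with Lad1, with a median log2 ratio of -0.18 and 0.08, against -0.05 and 0.02 over all genes. Actc1, cardiac actin, had 1 UMI in all Cd3+ barcodes, Myh6 and Myh7, the cardiac myosin heavy chains, 17 and 6, and Tnnc1 and Tnni3, the cardiac partners of Tnnt2, 19 and 24. Of 12 genes for basement membrane anchors and desmosomes, 6 had at least 100 UMIs and 0 spanned 4-fold, with a median ratio of -0.997 in G1 and -0.08 in G3. Pkp4 was the only 1 of them 2-fold higher in cells with Lad1, at log2 1.22 in G1 and 1.14 in G3, while Itga6, an integrin chain, was lower at -2.42 and -1.36.

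Of 11 p53 targets, 10 had at least 100 UMIs, and 6 in each library were 2-fold higher in cells with Lad1, with a median log2 ratio of 1.13 in G1 and 1.09 in G3. Sesn2, the stress protein sestrin 2, stood at 1.89 and 1.92, Aen, an apoptosis nuclease, at 1.69 in each, and Cdkn1a, the cell cycle inhibitor p21, at 2.16 and 2.68. Mdm2 stood at -0.17 and -0.03. Only Cdkn1a spanned 4-fold over the libraries, at 22.9 CPM in G1, 3.58 in G2, 21.1 in G3, 3.53 in H1 and 2.71 in H2. Of 10 LIM-protein genes, 8 had at least 100 UMIs and 0 were 2-fold higher in G1 cells with Lad1, and Fhl2 alone was in G3, at 2.86, against -0.85 in G1, and the median was -0.75 and -0.08. Of 16 genes of the T-cell receptor response, to which Irf4 and Nr4a1 belong, 14 spanned 4-fold, where 4.47% of all measured genes did. In cells with Lad1, 13 of them in G1 and 16 in G3 were 2-fold higher, with medians of 1.85 and 2.38. These counts include Irf4, at 2.47 and 2.62, and Nr4a1, at 1.74 and 2.13. Their detection with Lad1 was part of the choice of members, so the counts are a description and no test.

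Other cell types were looked for by their markers. In cells with Lad1 the 6 muscle markers summed to 0.246 CPM in G1 and 0.623 CPM in G3, against 0.157 and 0.385 CPM in cells without, and Myh6, Myh7, Actc1 and Ckm were at 0 in cells with Lad1 in both libraries. The 8 fibroblast markers summed to 1.97 CPM in G1 and 21.0 CPM in G3 against 2.70 and 2.40 CPM, with Col1a1 and Lum at 0, and without barcodes over 50000 UMIs the values were 2.01 and 1.21 CPM. The 5 epithelial markers summed to 1.97 and 6.02 CPM against 1.15 and 0.972 CPM, and to 2.01 and 0.725 CPM without these barcodes. The 4 myeloid markers, Lyz2, Csf1r, S100a8 and Cd68, which include no MHC class II gene, summed to 8.12 and 135 CPM against 77.1 and 70.7 CPM, and to 7.53 and 7.25 CPM without them, against 8.25 and 22.6 CPM. When every barcode over 50000 UMIs or with at least 2 markers of another class was left out, Lad1 stood at 31.8 CPM in G1 and 25.9 CPM in G3, Tnnt2 at 14.5 and 12.1 CPM, and 58.0% and 56.4% of cells with Lad1 held Tnnt2. Background from free RNA can hardly be measured here. Of the Cd3-negative barcodes with B-cell or myeloid markers, 0 of 15 in G1 and 0 of 14 in G3 held Lad1 or Tnnt2. That allows a share of up to 20% and 21.4%. Their median was 22280 and 22691.5 UMIs, against 8767.5 and 8508 in Cd3+ barcodes. Whether such cells lack both genes was not tested, so they are no known blank for free RNA. Of the Cd3+ barcodes with at least 2 of the MHC class II chains above, 4 of 15 in G1 and 10 of 21 in G3 held Lad1.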

How the data were processed

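The deposited files are 2 aggregated single-cell matrices of UMI counts per gene and barcode, made by the authors from 5′ libraries. Per the submitters' processing notes the reads were processed with Cell Ranger 6.0.0 on mm10, while the file headers name cellranger 7.1.0. Intron counting, the use of strand and any equalizing of depth between libraries are not given in the sources used here. The counts were used as deposited.

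Barcodes with at least 500 UMIs, at most 10% mitochondrial UMIs and at least 1 UMI of Cd3d, Cd3e or Cd3g were kept as Cd3+ (22874 of 25623). No doublet caller was run. Leaving out the 6% of cells with the most UMIs, or barcodes over 50000 UMIs, stood in for it. CPM is scaled to all UMIs of the cells compared. Thinning drew 3000 UMIs per cell without replacement from 21663 cells and left out 1211 shallower ones.

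Poisson and Clopper-Pearson intervals and conditional binomial intervals of ratios are exact, at 95%. They treat UMIs as independent and cover counting error only. Rankings, the ratios of listed genes and neighbors, and all spans over libraries add 0.5 to counts. With libraries that no source ties to a sample, no test between groups was made. A gene counts as measured with at least 100 UMIs, in the cells compared for a ratio within a library. The scripts were tested on simulated data.

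The members, the gene lists and the markers were chosen with earlier results of these data known. The genes named are the 6 members, every measured gene within 500 kb of the start of Lad1, the 10 most like Lad1 and the 10 most like Tnnt2, and examples from 5 lists (sarcomere, basement membrane and desmosome, p53 targets, LIM proteins, T-cell receptor response). Single genes picked from those lists, and the receptor and state genes of cells with Lad1, were named after their values were seen. Python 3.11.15, numpy 2.4.6, scipy 1.17.1, pandas 2.3.3 and matplotlib 3.10.9 were used. A further state gene is not reported here.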

Additional observations from a re-analysis of the deposited data

Results flagged for a closer look

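Lad1 and Tnnt2 were also found outside the Cd3+ barcodes, in G1 and G3. Cd3-negative barcodes held 50 UMIs of Lad1 in 23 of 474 barcodes (4.85%) in G1 and 91 in 25 of 524 (4.77%) in G3, and none in G2, H1 and H2. They held 43 UMIs of Tnnt2 in 13 barcodes (2.74%) in G1 and 53 in 25 barcodes (4.77%) in G3. What drew attention is that these barcodes are not among the Cd3+ barcodes on which the levels and shares rest, and held more than the 3 counts that a count of 0 allows. Their median depth was 985.5 UMIs in G1 and 1059.5 in G3, against 8767.5 and 8508 in Cd3+ barcodes. Every Cd3-negative barcode with Lad1 also held Trac, which was in 437 of the 474 and 461 of the 524.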

How the results depend on the processing

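The levels, shares, spans and ranks of Lad1 and Tnnt2 kept their direction under the alternatives run. Without barcodes over 50000 UMIs, the log2 ratio of cells with to cells without Lad1 in G1 changed sign for Fmnl2 (-2.02 in place of 2.99) and H2-Aa (-0.34 in place of 2.08), and that of Ccl22 was 0.01 in place of 6.37. Thinning to 3000 UMIs moved the log2 ratio of cells with both to cells with neither of Irf4 and Nr4a1 for Lad1 to 4.30 in G1 and 4.34 in G3, and for Tnnt2 to 4.27 and 4.25, against 4.63, 4.95, 4.88 and 4.70 with 0.5 added to unthinned counts. It moved the share of Lad1 cells with Tnnt2 to 39.7% and 35.4%. Among cells with Cd4 that share was 48.2% and 44.4%, and the Lad1 ratio in G1 was 5.15. Without the 6% of cells with the most UMIs, the ratios in G3 were 5.29 for Lad1 and 5.17 for Tnnt2. The causes were not tested. The span over libraries stayed within its interval under all 9 alternatives for Lad1 (log2 9.07 to 9.59) and Tnnt2 (8.13 to 9.93). These intervals are wide. For Lad1 it is 7.39 to 13.3, and the lowest library, H2, has 1 UMI, and 0 cells with Lad1 when thinned. For Tnnt2 the lowest library has 0 UMIs, so that the span rests on the added 0.5 or 1 and is no measured ratio. Both genes ranked first for each other under all 5 alternatives of the ranking. The Phlda3 span was 5.29 when thinned, against 3.39, with G2 (0 cells) in place of H2 as the lowest library, and the cause was not tested. No paired analysis was possible because no library is tied to a labelled sample and each group has 1 sample. For the same reason no library could be left out as a replicate. Depth limits Tnni1 and Pkp1, with 40 and 3 UMIs in all.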
